A study of Mus musculus with 6 samples.

Results

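The genes described here were 10 heat shock chaperones of the cytosol and the mitochondrion, Hsp90ab1, Hsp90aa1, Hspa8, Hspa1a, Hspa1b, Hspb1, Hsph1, Dnajb1, Hspd1 and Hspe1, chosen by name from the 47643 genes of the count files. All 10 were found by their Ensembl identifiers and all 10 passed the filter on low counts, as did 12088 genes in all. They were read in epithelial cells sorted as CD45-EPCAM+ from 6 mammary tumors of the MMTV-PyMT line, whose full strain name is FVB/N-Tg(MMTV-PyVT)634Mul/J, in which the mouse mammary tumor virus promoter drives the polyomavirus middle T antigen in the mammary epithelium. All 6 mice carried the transgene, and all 6 were given the anti-VEGF-A antibody B20-4.1.1, 5 mg/kg into the peritoneum 2 times per week for 6 weeks, starting at 7 weeks of age. The study sorted treated tumors into those that became hypoxic and those that did not, but the sample labels do not give the class of each tumor, so the 6 samples form 1 group and no difference between groups was tested. No untreated tumor was analysed here. The tumors are numbered 1 to 6 by the sample number in their titles, and the mouse names in the labels differ for all 6.

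Chaperones bind proteins that are unfolded or not yet folded. HSP70 proteins cycle on and off a client with the help of an HSP40 partner, which delivers the client and triggers ATP hydrolysis, and of an HSP110 protein, which releases the nucleotide, and HSP90 takes over clients near their final fold, among them kinases and steroid receptors. Small heat shock proteins hold unfolded clients without using ATP, and in the mitochondrial matrix the chaperonin HSP60 closes its folding chamber with the lid HSP10. In most cells one set of these genes is expressed at all times and another is switched on through heat shock factor 1 when proteins unfold, and tumors are known to express many of them at high levels.

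The libraries were made from the 3′ ends of transcripts, and their totals lay between 2509482 counts on genes (tumor 2) and 5893246 (tumor 1), so that a level of 3 counts, the limit of a count of 0, came to between 0.509 and 1.20 CPM, the count scaled to the library's total on genes. Reads assigned to no gene made up between 16.1% (tumor 1) and 41.4% (tumor 2) of a library. The library of tumor 1 stood apart, since its median r with the rest, taken across genes, was 0.788 where the other 5 had 0.905 to 0.939, so results that rest on it are given with and without it. Epcam, the gene of the sorted marker, lay between 611 and 972 CPM. Luminal markers summed to between 3957 and 4874 CPM, endothelial markers to at most 4.61 CPM and fibroblast markers to at most 26.4 CPM. Basal markers summed to between 130 and 501 CPM, with tumor 5 highest. The immune list summed to between 104 and 297 CPM. The erythroid list summed to 864 CPM in tumor 3, against 5.66 to 69.4 CPM in the other 5 tumors.

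Hsp90ab1 had the highest level of the 10 genes in every tumor and Hspa8 the lowest, although the Hspa8 value is uncertain because of a near-identical copy. In sorted bulk samples, fewer cells that express a gene and less of its RNA per cell cannot be told apart. Because a 3′ library reads the end of each transcript whatever its length, the levels of different genes were compared in CPM, and the order by TPM, which also divides by transcript length, is given beside it. By median CPM the order was Hsp90ab1, Hsp90aa1, Hspa1b, Hspa1a, Dnajb1, Hspb1, Hspe1, Hspd1, Hsph1 and Hspa8. Hsp90ab1 was above Hsp90aa1 in 6 of 6 tumors with no overlap of their ranges, while Hsp90aa1 was above Hspa1b and Hsph1 above Hspa8 in 6 of 6 tumors each with ranges that overlapped. The neighbours from Hspa1b to Hsph1 kept their order in only 3 to 5 of 6 tumors and their ranges overlapped. By median TPM Hspb1 moved up to the third place and Hspe1 to the sixth, and Hsp90ab1, Hsp90aa1, Hspd1, Hsph1 and Hspa8 kept their places.

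**Figure D1:**
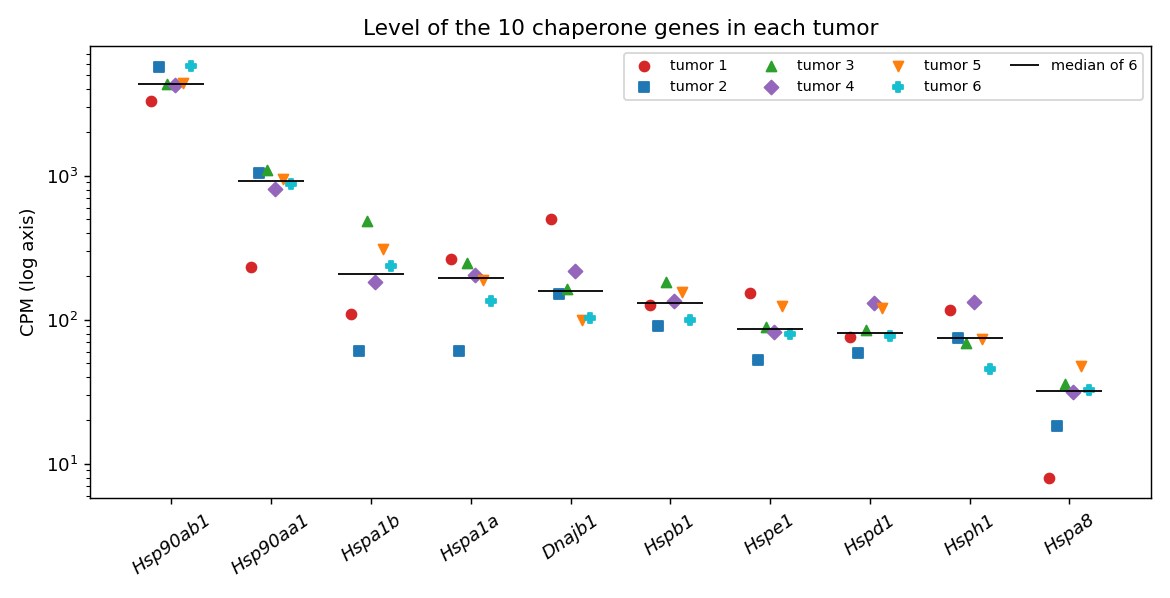
Level of each of the 10 genes in CPM (log axis) in the 6 tumors, ordered by median. Each symbol is 1 tumor and the black line is the median of the 6. Hsp90ab1 lies at 3286 CPM or above in all tumors, and tumor 1 sits far below the other 5 for Hsp90aa1 and far above them for Dnajb1.

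The HSP90 pair consists of Hsp90ab1, the form made at all times (chr17:45567775-45573271, minus strand, GRCm38), and Hsp90aa1, the form that stress induces further (chr12:110690605-110702728, minus strand). Hsp90ab1 was at 3286 CPM in tumor 1, between 4283 and 4382 CPM in tumors 3, 4 and 5, and at 5701 and 5740 CPM in tumors 2 and 6, with a median of 4370 CPM. It ranked 12 among all genes by median CPM and made up between 63.9% and 78.0% of the summed CPM of the 10 genes. Hsp90aa1 was at 234 CPM in tumor 1 and between 806 and 1099 CPM in the other 5, with a median of 915 CPM. Tumor 1 was therefore the lowest for both forms, but the gap was far wider for Hsp90aa1, at −2.09 on the log2 scale relative to the median of the other 5 tumors, against −0.43 for Hsp90ab1. The ratio of Hsp90aa1 to Hsp90ab1 was 0.071 in tumor 1 and lay between 0.154 and 0.252 in the others. Without tumor 1, the highest Hsp90aa1 level was 1.37 times the lowest in TMM-scaled CPM. That scale adjusts library sizes by edgeR's trimmed mean of M values. On that scale, this was the narrowest spread of all 10 genes in those 5 tumors.

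The HSP70 genes were Hspa8 (chr9:40800984-40810087, plus strand), which encodes the constitutive form HSC70, and the intronless Hspa1a (chr17:34969190-34972156, minus strand) and Hspa1b (chr17:34956436-34959238, minus strand), which lie side by side and encode the stress-induced form. Since their sequences decide how far reads can be told apart, the coding ends are shown first, with the last 40 coding bases of the inducible pair and the last 60 of Hspa8 and of Gm15459, a processed pseudogene of Hspa8 on chromosome 5. Capitals mark the codons of the last 4 residues, EEVD, the tail that binds TPR domain co-chaperones such as Stip1 and Stub1, and the stop codon. The sequences are from GENCODE M21 transcripts (GRCm38).
Hspa1a, chr17:34970000-34970039, minus strand: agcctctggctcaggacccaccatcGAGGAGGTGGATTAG
Hspa1b, chr17:34957079-34957118, minus strand: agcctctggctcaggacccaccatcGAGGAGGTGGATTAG
Hspa8, chr9:40805058-40805117, plus strand: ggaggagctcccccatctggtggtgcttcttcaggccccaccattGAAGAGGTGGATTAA
Gm15459, chr5:5781615-5781674, minus strand: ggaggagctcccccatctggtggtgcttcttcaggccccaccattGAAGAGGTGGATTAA

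Within each pair the letters were the same at every base shown. The coding parts of Hspa1a and Hspa1b were identical at 99.4% of aligned bases, but downstream of the stop codon the 2 genes diverge, and no stretch of 50 bases was shared between them in the last 786 bases of Hspa1a or the last 619 bases of Hspa1b. Hspa8 was different, because 82.5% of the 50-base stretches in its last 300 bases occurred also in another annotated gene. In these last 300 bases Gm15459 shared 66.9% of the stretches, and Gm26825, which had no count in any tumor, shared 82.5%. Gm15459 matched the coding part of Hspa8 at 99.7% of aligned bases. Of the other members, Hspe1 shared 43.8% and Hspb1 18.3% of such stretches, with copies that were at no more than 0.970 CPM where they were in the files, and the other 7 shared none.

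The Hspa8 gene itself was counted at 7.98 CPM in tumor 1, 18.3 CPM in tumor 2 and between 31.5 and 47.9 CPM in the other 4 tumors, with a median of 32.0 CPM from 46 to 240 counts. Gm15459 was counted at between 70.1 and 189 CPM, above Hspa8 in each tumor, by 1.87 times in tumor 5 and 23.7 times in tumor 1. Tumor 1, lowest for Hspa8, was thus highest for the pseudogene. Summed, the pair was at 88.5 CPM in tumor 2, a median of 127 CPM and 197 CPM in tumor 1. How the counting split reads between them cannot be told from counts, so the Hspa8 level is uncertain and its low place in the order of the 10 genes holds for the deposited counts only. The deposited number of reads without a unique alignment was 0 in every library. Whether reads that match both genes were left out cannot be told from this, so the sum of the pair may also be too low.

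Hspa1a was at 266 CPM in tumor 1 and 61.0 CPM in tumor 2, with 135 to 249 CPM in the other 4 and a median of 195 CPM. Hspa1b was at 109 CPM in tumor 1, 60.2 CPM in tumor 2, 182 CPM in tumor 4, 235 CPM in tumor 6, 310 CPM in tumor 5 and 485 CPM in tumor 3. Both were therefore lowest in tumor 2, but tumor 1 had the highest Hspa1a and, after tumor 2, the lowest Hspa1b. Their sum ran from 121 CPM in tumor 2 to 734 CPM in tumor 3, with a median of 380 CPM. Tumor 3 was also the tumor with the high erythroid list, and the part of those cells in the Hspa1b level was not tested. Gm20481, which is annotated on the other strand across Hspa1a, had no count in any tumor.

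The balance between the 2 inducible genes differed between tumors by more than counting error. Hspa1a made up 70.9% of the counts of the pair in tumor 1 (95% exact binomial interval 68.9 to 72.8%), 52.8% in tumor 4 (50.5 to 55.1%) and 50.3% in tumor 2 (44.6 to 56.1%). In tumors 3, 5 and 6 it made up 33.9% (32.2 to 35.6%), 37.7% (35.7 to 39.6%) and 36.4% (34.2 to 38.6%). The interval of tumor 1 overlapped none of the others, those of tumors 2 and 4 overlapped each other, and those of tumors 3, 5 and 6 lay below both. The intervals cover counting error only, and with 1 library per tumor the spread between libraries of the same tumor is unknown.

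The stretches upstream of the 2 genes are shown because the balance shifted between genes whose promoters are nearly the same. Each is the 250 bases before the RefSeq start (GRCm38.p6), with the bases that differ in capitals.
Hspa1a, chr17:34972157-34972406, minus strand: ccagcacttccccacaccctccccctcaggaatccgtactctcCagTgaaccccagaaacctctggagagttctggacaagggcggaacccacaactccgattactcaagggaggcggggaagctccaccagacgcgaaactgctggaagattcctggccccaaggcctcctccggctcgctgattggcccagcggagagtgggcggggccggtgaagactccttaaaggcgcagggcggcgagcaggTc
Hspa1b, chr17:34959239-34959488, minus strand: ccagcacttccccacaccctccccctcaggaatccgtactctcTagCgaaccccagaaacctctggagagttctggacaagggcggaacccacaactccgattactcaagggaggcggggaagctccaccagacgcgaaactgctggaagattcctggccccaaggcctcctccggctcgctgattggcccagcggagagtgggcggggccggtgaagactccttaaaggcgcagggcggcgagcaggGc

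The pair of stretches was identical at 247 of 250 bases, and whether the differing bases bear on the balance was not tested.

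**Figure D2:**
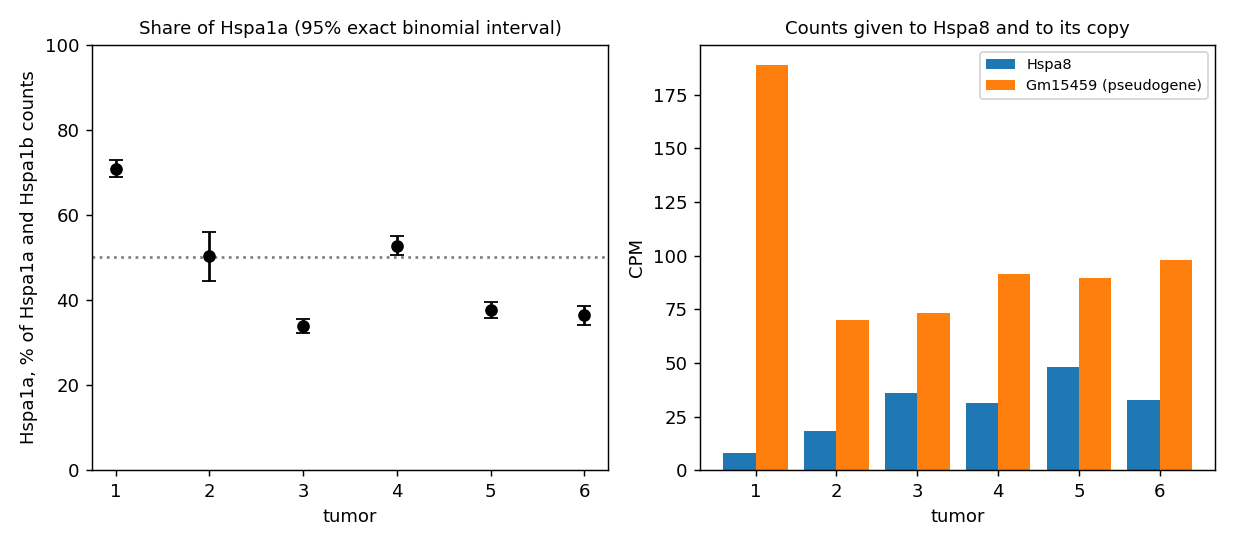
Left, the share of Hspa1a in the summed counts of Hspa1a and Hspa1b in each tumor, with 95% exact binomial intervals and a dotted line at equal shares. Right, CPM of Hspa8 and of its processed pseudogene Gm15459 in each tumor. The share of Hspa1a is 70.9% in tumor 1 and 33.9 to 52.8% in the others, and the pseudogene bar is the higher one in all 6 tumors.

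Dnajb1 encodes the inducible HSP40 partner of cytosolic HSP70 (chr8:83608193-83612653, plus strand), and Hsph1 encodes HSP110, its nucleotide exchange factor (chr5:149614287-149636376, minus strand). Dnajb1 was at 500 CPM in tumor 1 and between 99.2 and 217 CPM in the other 5, with a median of 158 CPM. Tumor 1 stood at 1.64 on the log2 scale above the median of the other 5, and did not overlap them. In tumor 1, Dnajb1 was counted 2.13 times as often as Hsp90aa1, and in the other tumors 0.105 to 0.270 times as often. In TMM-scaled CPM, the highest Dnajb1 level was 5.00 times the lowest over all 6 tumors and 2.20 times without tumor 1. Hsph1 was lowest in tumor 6 (45.1 CPM) and highest in tumor 4 (132 CPM), with a median of 74.3 CPM. Tumors 1 and 4 were high and the other 4 lay between 45.1 and 74.9 CPM.

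Hspb1 encodes HSP27 (HSP25 in the mouse), a small heat shock protein that is abundant in many epithelia (chr5:135887919-135889563, plus strand). Its levels ran from 90.1 CPM in tumor 2 to 181 CPM in tumor 3, with a median of 130 CPM and no tumor set off from the rest. Its highest level was 1.84 times the lowest in TMM-scaled CPM, on that scale the narrowest spread of the 10 genes over all 6 tumors. In CPM the ratio was 2.01 for Hspb1 and 1.75 for Hsp90ab1, which was then the narrowest.

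The mitochondrial pair was Hspd1, encoding HSP60 (chr1:55077835-55088243, minus strand), and Hspe1, encoding its lid HSP10 (chr1:55088132-55091307, plus strand), which lie head to head, overlap only at their first exons on opposite strands, and are read away from each other. Hspd1 was at 59.0 CPM in tumor 2, between 75.8 and 84.9 CPM in tumors 1, 3 and 6, and at 120 and 131 CPM in tumors 5 and 4, with a median of 81.1 CPM. Hspe1 was at 52.2 CPM in tumor 2, between 79.8 and 89.2 CPM in tumors 3, 4 and 6, and at 125 and 154 CPM in tumors 5 and 1, with a median of 85.6 CPM. Both genes were lowest in tumor 2 and both were high in tumor 5, but tumor 4 was highest for Hspd1 only and tumor 1 for Hspe1 only. The ratio of Hspe1 to Hspd1 was 2.02 in tumor 1, 0.624 in tumor 4 and between 0.885 and 1.05 in the other 4.

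Between the starts of the main transcripts of the mitochondrial pair lie 107 bases, and within them the letters of a heat shock element, the sequence that heat shock factors bind as inverted repeats of GAA, were found on either strand of the same DNA. The stretch is shown once from each gene, with the element in capitals, together with the only other member that held it.
Hspd1, chr1:55088053-55088082, minus strand: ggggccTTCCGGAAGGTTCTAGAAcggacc
Hspe1, chr1:55088053-55088082, plus strand: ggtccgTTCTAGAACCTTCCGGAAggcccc
Hsph1, chr5:149636282-149636306, minus strand: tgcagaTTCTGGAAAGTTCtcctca

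The search used the RefSeq windows from 250 bases before to 50 bases after each start, which held 7 of the 10 members in 10 windows. Hsp90ab1, Hsp90aa1 and Hspa8 were not in that table. The letters of 3 units, GAANNTTCNNGAA or TTCNNGAANNTTC, which are each other's other strand, occurred for 3 of the 7 members and in 0.603% of the 32851 windows. The element of Hsph1 lies after its start. The shorter GAANNTTC, which the longer letters contain, occurred for 6 of the 7 and in 7.86% of all windows, and TTCNNGAA, contained in them likewise, for 3 of the 7 and in 8.52%. A match is a description of letters, and Hsf1, the main heat shock factor, was itself at 8.14 to 12.9 CPM.

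Over the 10 genes, coefficients of variation between tumors were 20.4 to 73.2% in CPM, where counting alone would give 0.715 to 9.02%. The highest tumor was at least 2 times the lowest (TMM-scaled) for 8 of the 10 genes, against 59.4% of the 3766 genes whose mean level reached 50 CPM, and the median ratio was 3.42 for the 10 genes and 2.18 for those genes. Hspa8, with a mean of 29.0 CPM, is among the 8 but lies below the level of that set. Of all genes past the count filter, 68.9% reached the ratio. Without tumor 1, 7 of the 10 genes reached that ratio, against 25.2%, and the medians were 2.23 and 1.66. The largest ratios were 7.35 for Hspa1b, 6.05 for Hspa8, 5.00 for Dnajb1 and 4.75 for Hsp90aa1, of which those of Dnajb1 and Hsp90aa1 came down to 2.20 and 1.37 without tumor 1 and that of Hspa8 to 2.47. Leaving out tumor 2 left 5 of the 10 genes at a ratio of at least 2. The share of the genes set beside was not computed without tumor 2, and fewer tumors make fewer ratios large. A single tumor was set off from the rest by an end gap above Dixon's 95% critical value for 2 of the 10 genes, Hsp90aa1 and Dnajb1, against 21.1% of the genes set beside, which is about the same share. Both gaps were at tumor 1.

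No tumor had all 10 genes at one end of their range. In tumor 1, 3 of them were at their lowest (Hsp90ab1, Hsp90aa1 and Hspa8, the last of which was highest there, at 197 CPM, when summed with Gm15459), against 28.4% of the genes set beside, and 3 at their highest (Hspa1a, Dnajb1 and Hspe1), against 41.2%. In tumor 2, the library with the fewest counts, 5 of the 10 were at their lowest (Hspa1a, Hspa1b, Hspb1, Hspd1 and Hspe1), against 27.0%, and none at its highest, against 15.6%. On the log2 scale, relative to the other 5 tumors and after TMM scaling, the median of the 10 genes was −0.15 in tumor 1 and −0.48 in tumor 2, where the median of the genes set beside was 0.12 and −0.03. The part of depth and of the reads assigned to no gene in these values was not tested.

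**Figure D3:**
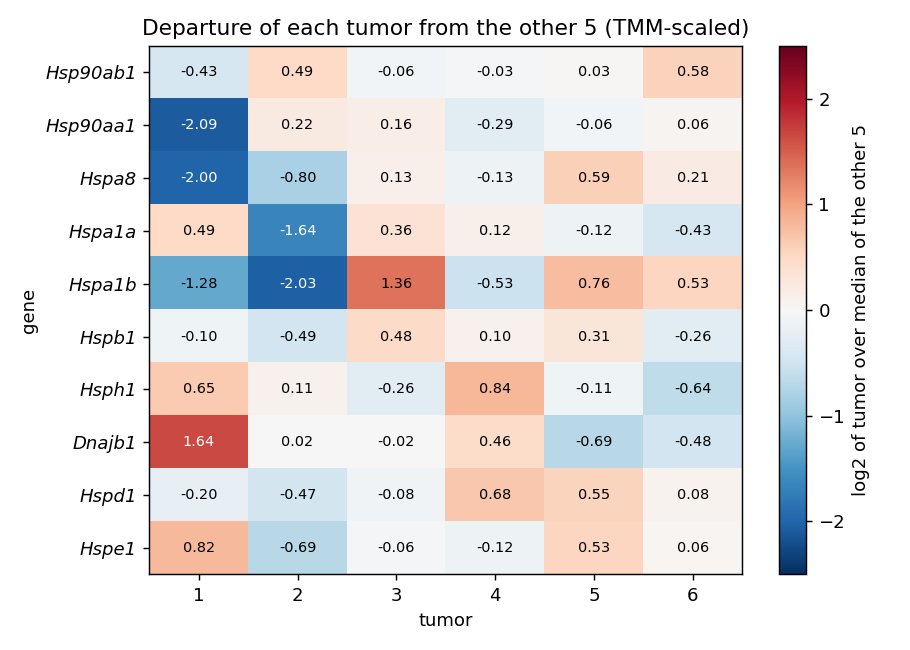
Log2 of each tumor's level over the median of the other 5 tumors (TMM-scaled CPM plus 1), for the 10 genes (rows) and the 6 tumors (columns), red above and blue below. Tumor 1 holds both the lowest Hsp90aa1 (−2.09) and the highest Dnajb1 (1.64), and tumor 2 is low for Hspa1a (−1.64) and Hspa1b (−2.03).

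To ask which of the 10 genes varied together, Pearson's r and Spearman's rho were computed over the 6 tumors for all 45 pairs, on log2(TMM-scaled CPM + 1). Of the 45, 25 were positive, the median r was 0.21, and without tumor 1 it was −0.08 with 21 positive. No pair passed after Benjamini-Hochberg adjustment over the 45 (smallest adjusted exact permutation p = 0.453 for r and 0.375 for rho), and 4 pairs had an unadjusted p under 0.05 for r and 2 for rho. An r of at least 0.8 was reached by 2 of the 45 pairs, against 9.36% of all pairs among the genes set beside. With 720 orders of 6 tumors, the smallest exact p is 0.00139. A single pair at that p would not pass the adjustment over the 45. The lack of passing pairs therefore does not show that none of the genes vary together.

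The pair with the strongest relation was Hspa8 and Dnajb1, whose levels ran in opposite order (r = −0.90, exact permutation p = 0.0194, rho = −0.94, p = 0.0167, n = 6). Leaving out the 2 most extreme tumors for Hspa8 gave r = −0.87, and leaving out tumor 1 gave −0.57. With Gm15459 added to Hspa8 the sign turned (r = 0.51, exact permutation p = 0.292, rho = 0.09, p = 0.919, n = 6), so the opposite order holds for the counts of Hspa8 alone. Hsp90ab1 and Hspa1a also ran in opposite order (r = −0.78, exact permutation p = 0.0417, rho = −0.94, p = 0.0167, n = 6). Their r was −0.82 without the 2 farthest tumors and −0.74 without tumor 1. Hspa1b and Hspb1 ran in the same order (r = 0.83, exact permutation p = 0.0444, rho = 0.83, p = 0.0583, n = 6). Their r was 0.86 without tumor 1 but 0.30 without the 2 farthest, so this relation rests on those 2 tumors. The HSP90 pair had r = 0.73 (exact permutation p = 0.0486, rho = 0.54, p = 0.297, n = 6). Its r was 0.97 without the 2 farthest tumors and 0.45 without tumor 1. All of these fail the adjustment.

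The study measured hypoxia in mouse tumors by pimonidazole staining, which was not used here. For patients, in whom that staining was not possible, it scored 3 transcripts, Vegfa, Slc2a1 and Car9. It also computed this score in the sorted mouse cells. The 3 transcripts encode an angiogenic ligand, a glucose transporter and a carbonic anhydrase induced by low oxygen. Their mean TPM ran from 37.2 in tumor 2 to 94.4 in tumor 5. By Pearson's r, Hspd1 followed the score most closely (r = 0.94, exact permutation p = 0.0139, rho = 0.77, p = 0.103, n = 6). The p of 0.0139 became 0.278 once adjusted over 20 relations. Its r stayed at 0.87 when the 2 tumors with the most extreme scores were dropped. Hspb1 had the highest rho (0.83, exact permutation p = 0.0583, r = 0.62, p = 0.197, n = 6). Hspe1 had r = 0.44 (exact permutation p = 0.369, rho = 0.31, p = 0.564, n = 6), and r = 0.82 without tumor 1. Of the 10 genes, 8 had a positive r, and 7 without tumor 1, where Hsp90aa1 turned from 0.08 to −0.74, and no relation passed the adjustment. Mouse names in the labels have 2 prefixes, which the labels do not call a batch, and within the 4 tumors of the commoner prefix (1, 4, 5 and 6) r was 0.89 for Hspd1 (exact permutation p = 0.25, n = 4), while the other prefix holds only tumors 2 and 3. A relation across tumors of both hypoxia classes can come from the classes, which cannot be told apart here. Tumor 5, with the highest score, was also highest for the basal list, whose part in these relations was not tested.

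Immediate early genes such as Fos, Jun and Egr1 are switched on within a short time of a stimulus, including the enzymatic dissociation that precedes sorting. Their list of 14 genes summed to between 5234 CPM in tumor 3 and 9470 CPM in tumor 2. With the list mean, Hsp90ab1 had r = 0.83 (exact permutation p = 0.0514, rho = 0.89, p = 0.0333, n = 6), Hspb1 had r = −0.81 (exact permutation p = 0.0556, rho = −0.77, p = 0.103, n = 6) and Hspa1a had r = −0.74 (exact permutation p = 0.0583, rho = −0.83, p = 0.0583, n = 6). No relation passed the adjustment (smallest adjusted exact permutation p = 0.292 for r), and 7 of the 10 genes had a negative r, the 3 positive ones being Hsp90ab1, Hsp90aa1 and Hspa8. Without tumor 1, Hsp90aa1 (−0.08) and Hspa8 (−0.46) turned negative, and Hsph1 (0.01) and Dnajb1 (0.03) were just above 0.

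**Figure D4:**
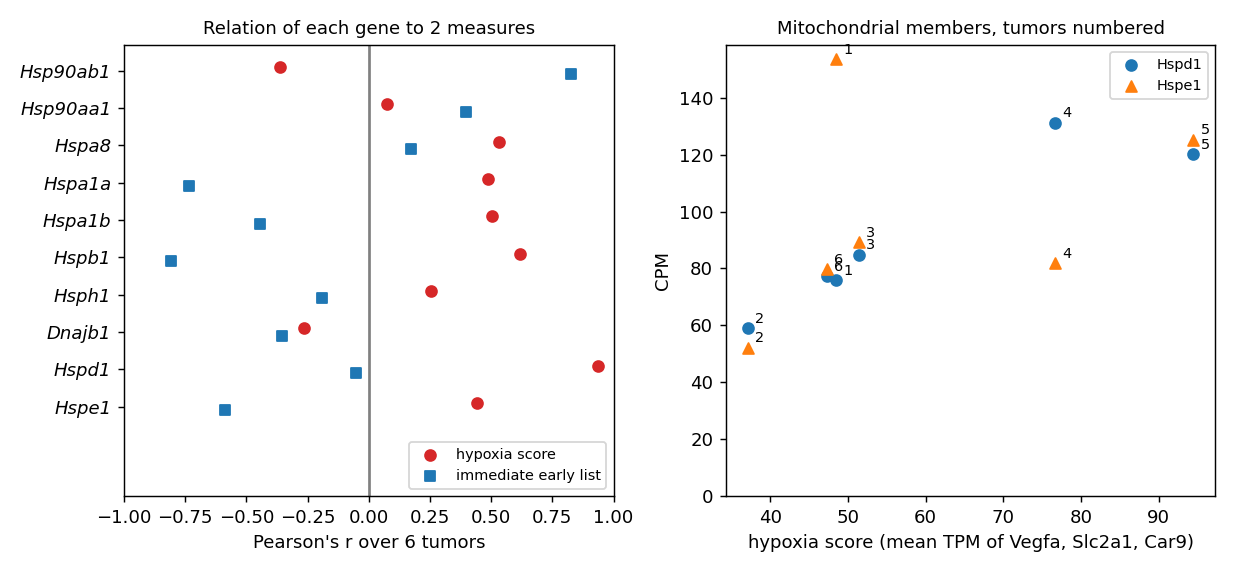
Left, Pearson's r over the 6 tumors between each gene and the 3-gene hypoxia score (red circles) or the mean of the immediate early list (blue squares). Right, CPM of Hspd1 and Hspe1 against the hypoxia score in mean TPM, with tumors numbered. Hspd1 lies at r = 0.94 with the score and runs from 59.0 CPM in tumor 2 to 131 CPM in tumor 4, and no relation passes the adjustment.

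Other genes of the chaperone network were read from lists that were chosen, like the 10 genes, with earlier results of these data known. The co-chaperones of HSP90 and HSP70 were the list with the highest share of genes at their highest in tumor 1. Of the 17 genes, 12 were at their highest there (41.2% of the genes set beside were). Some of the 17 averaged below the 50 CPM that the genes set beside reach, with Fkbp5 lowest at 16.3 CPM. The summed level of the list was 2345 CPM in tumor 1 against 1460 to 1562 CPM in the other 5 tumors. Fkbp4, a peptidyl-prolyl isomerase of the HSP90 complex, had the highest mean of the list and lay between 192 and 375 CPM. Hspbp1, an exchange factor of HSP70, varied most, from 49.0 CPM to 220 CPM in tumor 1, and Ahsa2 least, from 34.9 to 49.5 CPM. Bag3, which links HSP70 to small heat shock proteins, had 127 CPM in tumor 1 where the others had 69.3 to 92.3 CPM. Hsp90aa1 was thus at its lowest in the tumor in which most of these partners were at their highest.

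Of all 12088 genes past the count filter, 68.9% had a highest tumor of at least 2 times the lowest, and the counts per list are to be read against that share. Among the heat shock factors and their regulators, 3 of 4 listed genes passed the filter and none reached a ratio of 2. Hsbp1, which binds the trimer of the factor, was at 217 to 407 CPM with tumor 1 highest, and Hsf1 lay between 8.14 and 12.9 CPM with tumor 1 lowest. Of the other HSP70 and HSP110 genes, 5 of 9 passed the filter, led by Hspa4 at 136 to 285 CPM, while Hspa13 ran from 20.2 to 61.8 CPM and Hspa2 from 31.9 to 56.5 CPM. Of the other small heat shock proteins, 4 of 8 passed and all 4 reached a ratio of 2, with Hspb8, the partner of Bag3, at 9.94 to 70.0 CPM and Hspb6 at 8.37 to 27.8 CPM. Of the other HSP40 genes, 8 of the 12 that passed reached that ratio, with Dnaja1 at 147 to 218 CPM, the narrowest of its list, and Dnajc2 at 24.4 CPM in tumor 1 and up to 109 CPM in tumor 5.

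The cytosolic chaperonin TRiC, which folds actin and tubulin, had a summed level of 2176 CPM in tumor 1 where the others had 1060 to 1671 CPM. Of its subunits, 5 of 8 were highest in tumor 1, against 41.2% of the genes set beside. Cct7 had the highest mean (186 to 540 CPM), Cct5 the widest range (173 to 518 CPM) and Tcp1 the narrowest (138 to 183 CPM). In the mitochondrion, 2 of 9 other quality control genes reached a ratio of 2. Yme1l1, a protease of the inner membrane, kept to 107 to 132 CPM, and Htra2 ran from 7.57 to 28.7 CPM. In the endoplasmic reticulum, 8 of 12 chaperone genes reached a ratio of 2, close to the share of all genes, among them Hsp90b1, the HSP90 of that compartment, which was counted at 33.3 CPM in tumor 1 where the other 5 had 330 to 584 CPM. Hspa5, its HSP70, was at 1657 to 2258 CPM with tumor 1 highest, and Dnajb11 at 31.5 to 46.1 CPM. Of the HSP90 family, tumor 1 was thus lowest for Hsp90ab1, Hsp90aa1 and Hsp90b1, but highest for the mitochondrial form Trap1, named here after its values were seen, at 121 CPM where the others had 36.9 to 61.8 CPM. Of the immediate early list, Ier3 had the highest mean (953 to 2278 CPM), Klf6 the widest range (195 to 1197 CPM) and Nr4a1 the narrowest (58.2 to 94.0 CPM).

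**Figure D5:**
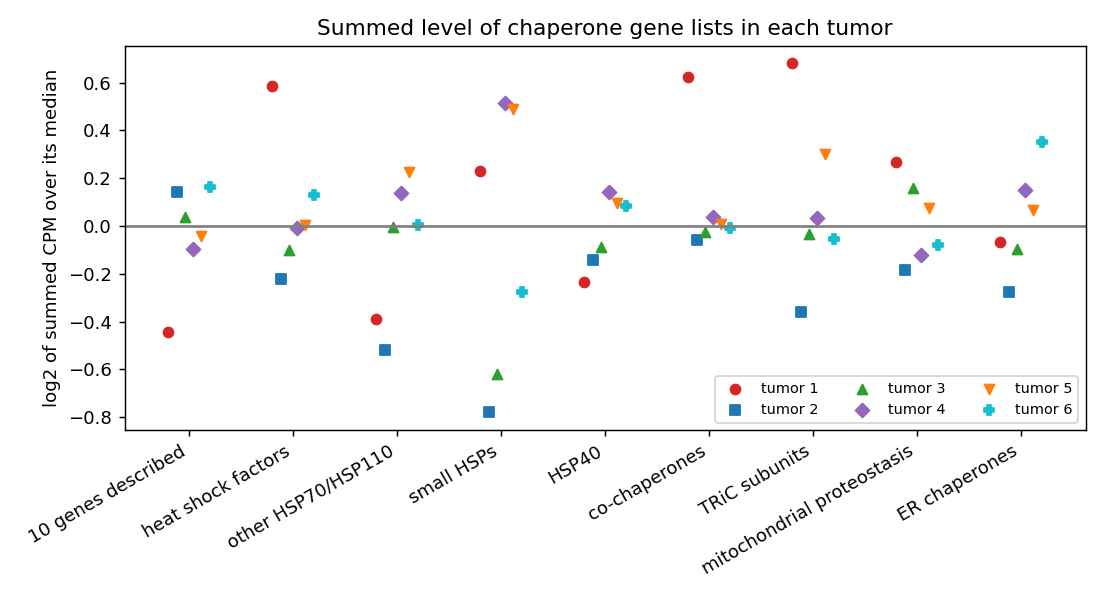
Log2 of the summed CPM of each gene list in each tumor over the median of the 6 tumors. Each symbol is 1 tumor. Tumor 1 lies highest for 4 lists, the heat shock factors and their regulators, the co-chaperones, the TRiC subunits and the mitochondrial list. It lies lowest for the 10 genes described and the HSP40 list. The sum of the heat shock factor list is mostly Hsbp1 (407 of 442 CPM in tumor 1), while Hsf1 is lowest in tumor 1.

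Across 3690 genes outside the lists whose mean level reached 50 CPM, those whose profile over the 6 tumors was most like the mean centred log2 profile of the 8 cytosolic genes were Pim3 (r = 0.98), Ss18 (0.97), Cept1 (0.96), Tspan14 (0.95) and Ube2q1 (0.95). That mean profile was lowest in tumor 2 (−0.39) and tumor 1 (−0.26) and highest in tumor 3 (0.31). The profile of Hspd1 and Hspe1 ran from −0.63 in tumor 2 to 0.42 in tumor 5, and the most like genes were Fam162a (r = 0.99), Map2k4 (0.98), Ccni (0.98), Akirin2 (0.97) and Wdr45b (0.97). These were the highest values of r among 3690 genes over only 6 tumors, and they are given as a description. Of these, Pim3 varied little, from 59.4 to 88.5 CPM, while Fam162a ran from 27.9 to 128 CPM.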

How the data were processed

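The authors sorted CD45-CD31-PDGFRα-EPCAM+ cells, made QuantSeq 3′ FWD libraries from RNA with a RIN above 7, and processed single reads with bbduk for trimming, STAR 2.5 for alignment to GRCm38/mm10 and HTSeq for counting. They deposited raw counts, 1 per gene and library, without normalization. Collapsing by the molecular identifiers of the kit, the strand setting and the annotation release are not given in the sources used here, so intervals cover counting error only and antisense pairs are uncertain. Lines that name no gene, 16.1 to 41.4% of reads, were left out.

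From the counts, CPM, TMM-scaled CPM (edgeR 4.0.16 in R 4.3.3, factors 0.911 to 1.06), counts over DESeq2 1.42.0 size factors and TPM (exon lengths of GENCODE M21) were computed. The filter was filterByExpr's (minimum count 10, minimum total 15, 3 tumors). Symbols came from GENCODE M21, with 419 identifiers unmatched. The genes set beside averaged 50 CPM or more. Relations used a pseudocount of 1, two-sided exact permutation tests over 720 orders and Benjamini-Hochberg adjustment, over 45 pairs or 20 relations. Named genes were the 10 members, the highest, most and least variable gene of each list at 10 CPM or more, Hsf1, Bag3, Hspa5 and Epcam, and the 5 most alike genes. The scripts were tested on simulated data. The members and lists were chosen with earlier results of these data known. Alternatives were other scalings, pseudocounts and filters, and each tumor left out. Python 3.11.15 was used.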

Additional observations from a re-analysis of the deposited data

Results flagged for a closer look

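Dixon's end gap was computed for 23 measures over the 6 tumors, namely the 10 genes, 3 ratios, Gm15459, the summed level of the 10 genes and the sums of 8 further lists. Chance flags about 1 in 20 groups, or 1.15 of 23, and 7 were above the 95% critical value, all with tumor 1 at the end. As 21.1% of the genes averaging 50 CPM or more had such a gap, most often at tumor 1 (704 of 794), such gaps were common in that library. Hsp90aa1 was set off at the low end with a gap of 0.661 of its range, and Dnajb1 at the high end with 0.705. The ratio of Hspa1a to Hspa1b had a gap of 0.685 and that of Hspe1 to Hspd1 a gap of 0.695. Gm15459, the pseudogene of Hspa8, had a gap of 0.767. The summed heat shock factor list had a gap of 0.631 and the summed co-chaperones a gap of 0.885. The sum of the heat shock factor list was mostly the regulator Hsbp1 (407 of 442 CPM in tumor 1), while Hsf1 was lowest in tumor 1. Why tumor 1 stands apart was not tested.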

How the results depend on the processing

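The median summed level of the 10 genes was 6631 CPM, stayed within the spread between tumors under TMM, DESeq2 size factors and TPM, lay at 6449 to 6814 CPM with each tumor left out, and moved to 8095 CPM without the 10 most abundant genes in the totals. Of the levels of single genes, 4 of 10 moved by more than that spread in TPM, 1 of 10 without the most abundant genes and none of 10 under TMM or DESeq2 size factors. None of 60 moved when a tumor was left out, but this could not have come out otherwise. Leaving out 1 of 6 tumors always shifts a median by less than the standard deviation between tumors, the spread used here. The number of genes with a ratio of at least 2 was 8, and 9 in CPM and by DESeq2 size factors. It was 5 to 8 when each tumor was left out, which by itself makes fewer ratios large. The share of such genes among those set beside was 59.4%, and 68.9% with the count filter alone and 82.5% with no filter. The number of genes with a tumor set off was 2, and 1 on log2(CPM + 1), and it was 0 without tumor 1, an alternative chosen after seeing the data. The 70 genes of the further lists had 35 with a ratio of at least 2, and 20 without tumor 1, likewise added later, where fewer tumors also make fewer ratios large. Summed with Gm15459, also added later, the median of Hspa8 moved from 32.0 to 127 CPM and its r with Dnajb1 turned from −0.90 to 0.51. No pair of members passed the adjustment in TMM-scaled CPM or CPM, with another pseudocount or with a tumor left out. No relation to the score or the immediate early list passed it in TMM-scaled CPM, in CPM or with a tumor left out. The smallest adjusted exact permutation p lay between 0.188 and 0.778 in these runs. With a tumor left out, fewer orders make the smallest possible p larger, so a single relation could not have passed. These failures therefore do not show that relations are absent. Between 0 and 12 of the 45 pairs changed sign, 12 of them without tumor 1. For Hspd1 and the score, r lay between 0.90 and 0.97 in TMM-scaled CPM, in CPM and with each tumor left out. It was 0.89 within the commoner name prefix, an alternative also added later. No paired analysis was possible because all 6 samples form 1 group.

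Depth limited Hspa8 most, at 46 to 240 counts.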

Other observations

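Across 3708 genes averaging 50 CPM or more, the GC content of the last 300 transcript bases and the log2 departure of tumor 1 from the other 5 tumors had Pearson's r of 0.47, across genes, which are not independent replicates. Across the 10 chaperone genes, whose ends ran from 34.7 to 54.0% GC, r was −0.24. Epcam, the gene of the sorted surface marker, shared none of its 50-base stretches with another gene.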
